A study of Mus musculus with 12 samples.

Results

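Chemokine ligands were followed in the colon of 2-week-old mice of 2 genotypes. The members were the genes whose symbol is Ccl, Cxcl, Cx3cl or Xcl followed by a number and, in some cases, a letter: 45 gene identifiers with 40 symbols, among 35688 genes measured. The groups were 6 Il10-/- Tnfr1-/- mice, which lacked the anti-inflammatory cytokine interleukin 10 and TNF receptor 1, and 5 Il10-/- mice, which lacked interleukin 10 alone. Every animal was thus Il10-/-, and no wild-type colon was used. RNA came from the whole thickness of the colon wall, 1 animal per library. Values are abundances scaled by the authors, divided by transcript length, so levels can be set side by side between genes. Tnfrsf1a, which encodes TNF receptor 1, was between 12.0 and 17.0 in Il10-/- Tnfr1-/- libraries and between 30.6 and 78.1 in Il10-/- libraries, with no overlap between the genotypes in the 11 libraries. A signal for this gene thus remained in each Il10-/- Tnfr1-/- colon; the deleted stretch is not named in the labels.

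Chemokines are small secreted proteins that bind G protein-coupled receptors on leukocytes and steer their migration. In the intestine, epithelial cells make some of them constantly, while tumour necrosis factor, interleukin 1 and microbial products switch others on through the transcription factor NF-kB. The family is usually read by the cells it attracts: CXC ligands with a Glu-Leu-Arg motif act on Cxcr2 of neutrophils, many CC ligands act on monocytes, macrophages and eosinophils, and a further set organizes lymphocytes and dendritic cells. The 45 members were sorted in this way into 11 epithelial, 16 myeloid-attracting and 18 lymphoid ligands. Of these, 12 lie on chromosome 11 and 11 on chromosome 5 of mm10, in gene clusters that arose by duplication.

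The neutrophil ligands Cxcl1, Cxcl2 and Cxcl3 lie in one gene cluster on chromosome 5, and their promoters are shown because these genes were low together in Il10-/- Tnfr1-/- colons. Cxcl5, of the same cluster, was low in these colons too; its promoter was not compared here. The 120 bases that end just before each gene on the plus strand were taken from RefSeq's promoter table (build GRCm38.p6). Capitals mark GGGAATTTCCC, the longest run of bases that these 3 stretches share, which is of the kind that NF-kB binds.
Cxcl1, chr5:90891121-90891240: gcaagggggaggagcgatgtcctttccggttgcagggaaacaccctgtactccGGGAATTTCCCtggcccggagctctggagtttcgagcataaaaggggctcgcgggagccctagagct
Cxcl2, chr5:90903751-90903870: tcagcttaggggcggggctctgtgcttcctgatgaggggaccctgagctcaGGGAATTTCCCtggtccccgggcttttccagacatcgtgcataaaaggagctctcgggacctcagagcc
Cxcl3, chr5:90785981-90786100: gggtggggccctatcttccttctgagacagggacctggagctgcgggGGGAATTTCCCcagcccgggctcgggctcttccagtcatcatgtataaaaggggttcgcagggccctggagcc

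The capitals begin 71, 97 and 73 bases before the RefSeq start of Cxcl1, Cxcl2 and Cxcl3. Searched on both strands, GGGAATTTCCC stood in 14 of the 32851 promoters of the table (0.0426%), each from 250 bases before to 50 bases after a gene's start. Among the 27 member symbols with a promoter there, these 3 were the ones that held it. The wider GGGNNTTTCCC, which contains the first motif, stood in 0.581% of all promoters and in those of 4 member symbols, with Ccl20 added. The run was picked because these promoters share it, and the genes share ancestry, so the 3 are not independent examples; a match describes the letters alone.

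Over all tested genes the genotypes were compared with limma on log2(abundance + 0.5), for genes with an abundance over 1 in at least 5 libraries. This left 13561 genes, of which 0% passed a Benjamini-Hochberg adjusted p of 0.05 and 8.34% had an unadjusted p under 0.05. Of the 45 members, 20 could be tested and 0 passed the adjusted threshold (smallest limma adjusted p = 0.536). At an unadjusted p under 0.05 there were 5 members: Cxcl1 and Cxcl5 lower (3.6% of all genes were lower at this p), and Ccl5, Ccl21a and Cxcl12 higher (4.74% of all genes were higher). The count is small, and it was 3 without Il10-/- Tnfr1-/- replicate 2 or 3 or without Il10-/- replicate 5 or 6. In these 4 fits 1109, 815, 756 and 482 of all genes had such a p, against 1131 with all libraries. The median log2 fold change of the 20 members, Il10-/- Tnfr1-/- over Il10-/-, was 0.12, against 0.054 for all genes. A higher mean log2 level was found for 12 of the 20, and for 55.5% of all genes. With equal library totals 15 of the 20 were higher, and the share of all genes that were higher was not counted. The median log2 fold change was then 0.26 for the members and 0.19 for all genes. All genes at an unadjusted p under 0.05 split into 692 higher and 229 lower with equal totals. The split was 643 and 488 as deposited and 487 and 721 with median-ratio size factors. No member separated the genotypes without overlap (0.575% of all genes did).

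**Figure D1:**
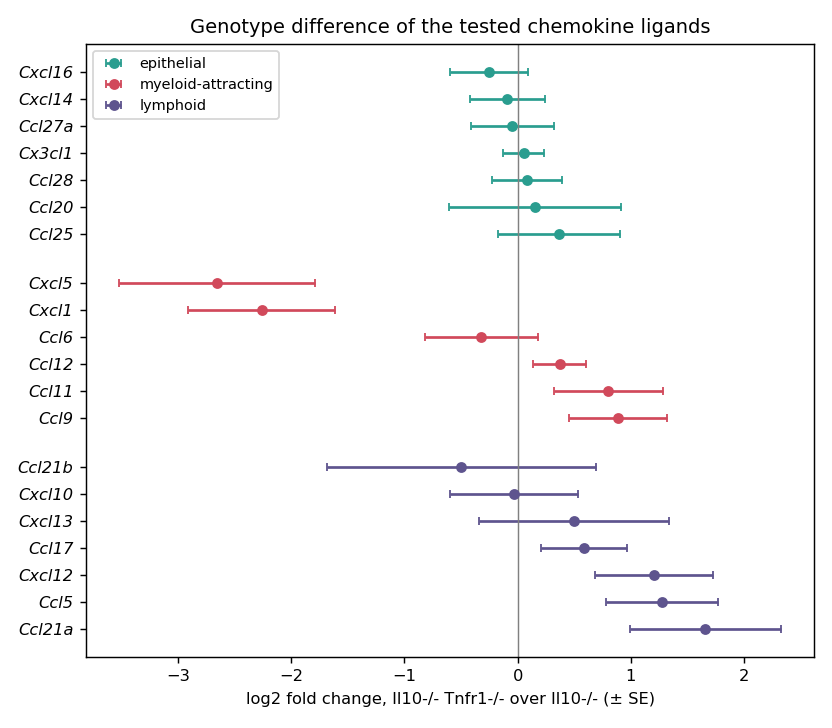
Log2 fold change of the 20 tested ligands, Il10-/- Tnfr1-/- over Il10-/- (horizontal axis, points with SE), grouped by role. The epithelial ligands lie between -0.25 and 0.37, Cxcl5 and Cxcl1 at -2.65 and -2.26, and Ccl21a, Ccl5 and Cxcl12 at 1.66, 1.27 and 1.20; no adjusted p is under 0.05.

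The ligands of neutrophils were low in every Il10-/- Tnfr1-/- colon and high in some Il10-/- colons. Cxcl1, the mouse counterpart of human GRO-alpha and a main Cxcr2 ligand (chromosome 5, 90891241 to 90893115), was at 0.363, 0.822, 0.597, 1.99, 0.125 and 0.132 in Il10-/- Tnfr1-/- replicates 1 to 6. It was at 15.2, 0.895, 1.34, 4.84 and 13.5 in Il10-/- replicates 1, 2, 3, 5 and 6. Replicates 1, 5 and 6 of Il10-/- stood above all Il10-/- Tnfr1-/- libraries, while Il10-/- replicates 2 and 3 lay within their range. The means were 0.672 ± 0.702 (SD, n = 6) in Il10-/- Tnfr1-/- and 7.16 ± 6.78 (SD, n = 5) in Il10-/- colons. The difference in log2 level was -2.26 ± 0.65 (SE), with a limma p of 0.00444 (adjusted p = 0.536) and an exact two-sided permutation p of 0.0152.

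Cxcl5, a Cxcr2 ligand that epithelium makes in large amounts (chromosome 5, 90759360 to 90761624), spanned the widest range of the group. It was at 0.0565, 2.03, 0.431, 3.07, 1.07 and 0.122 in Il10-/- Tnfr1-/- replicates 1 to 6, and at 71.7, 1.87, 2.11, 3.56 and 18.9 in Il10-/- replicates 1, 2, 3, 5 and 6. Il10-/- replicates 1 and 6 stood far above the rest, and Il10-/- replicates 2 and 3 overlapped the Il10-/- Tnfr1-/- colons. For this gene the log2 fold change was -2.65 ± 0.87 (SE), with a limma p of 0.00965 (adjusted p = 0.536) and an exact permutation p of 0.0173. Leaving out both Il10-/- replicates 1 and 6, an alternative chosen after seeing the data, gave log2 fold changes of -1.18 for Cxcl5 and -1.21 for Cxcl1, and Cxcl5 was at -1.87 without Il10-/- replicate 1 alone.

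Cxcl2 and Cxcl3, further Cxcr2 ligands that macrophages and neutrophils also make, were too low for the filter and are described because their neighbours were named, a choice made after their values were seen. Cxcl2 was at 0.00, 0.438, 0.168, 0.914, 0.172 and 0.211 in Il10-/- Tnfr1-/- replicates 1 to 6 and at 5.38, 0.611, 0.835, 2.72 and 10.4 in Il10-/- replicates 1, 2, 3, 5 and 6. As with Cxcl1, Il10-/- replicates 1, 5 and 6 were the highest. Without the filter its log2 fold change was -2.02 ± 0.56 (SE; limma adjusted p = 0.693). Cxcl3 stayed at or under 0.130 in Il10-/- Tnfr1-/- libraries, against 1.74 and 3.43 in Il10-/- replicates 1 and 6 and at most 0.111 in the other Il10-/- libraries. Cxcl15, a ligand known mainly from mouse lung, did not exceed 0.105 in any library.

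**Figure D2:**
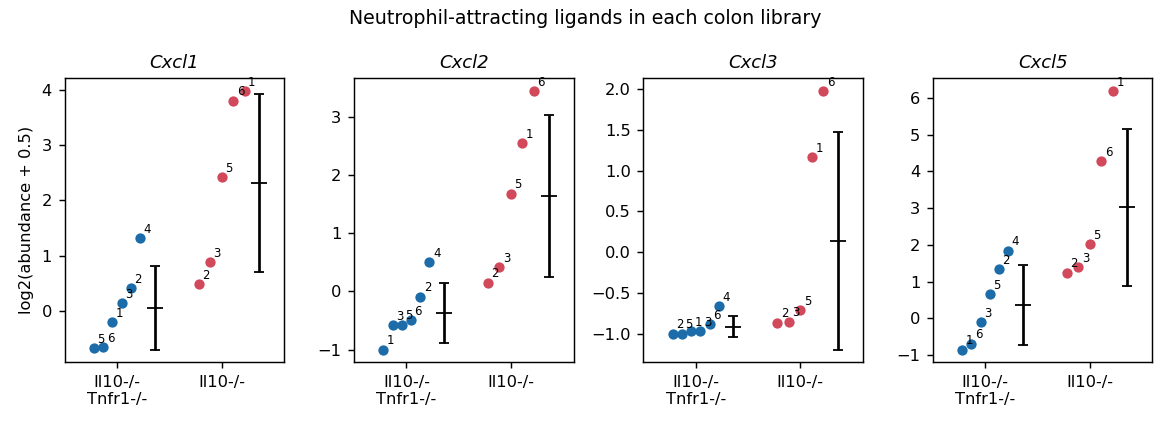
Log2(abundance + 0.5) of Cxcl1, Cxcl2, Cxcl3 and Cxcl5 in each library, with replicate numbers beside the points and mean ± SD as bars (n = 6 Il10-/- Tnfr1-/-, n = 5 Il10-/-). The same Il10-/- replicates, 1 and 6, are the highest in each panel, and the genotypes overlap in each.

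In the authors' deposited table the leading transcripts of Cxcl1, Cxcl2 and Cxcl5 had log2 folds of -3.78, -3.68 and -4.03. Their deposited p-values were 0.00144, 0.00133 and 0.00424, and the q-value of each was 0.684. Across the 52 member transcripts with a p-value in that table, 6 had one under 0.05 and 0 had a q-value under 0.05; 1 of those 6 was another Cxcl2 transcript and the remaining ones belonged to Ccl21a and Ccl5. The labels and headers do not say which libraries entered these folds, which do not all follow from the 11 used here. For Ccl17, with 1 transcript, the means here were 1.62 in Il10-/- Tnfr1-/- and 0.787 in Il10-/- colons, against a deposited fold ratio of 0.779.

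Neutrophil markers were highest in the same libraries. The summed abundance of 11 markers lay between 6.64 and 99.4 in Il10-/- Tnfr1-/- libraries and between 35.2 and 538.3 in Il10-/- libraries. The highest sums were 538.3 in Il10-/- replicate 1 and 432.7 in Il10-/- replicate 6, the libraries with the most Cxcl1, Cxcl2, Cxcl3 and Cxcl5. Replicate 3 of Il10-/- was next in the marker sum, at 157.8, with a sum of 4.34 for the 4 ligands. Ly6g was highest in Il10-/- replicate 1 and S100a8 in Il10-/- replicate 6. Camp went another way, at 1.40 in Il10-/- replicate 3 and at 0.140 and 0.188 in Il10-/- replicates 1 and 6. Elane was listed at 0 in all libraries, and Mpo, Ngp and Mmp8 did not exceed 0.112. In a bulk sample, fewer cells of a type and less RNA per cell cannot be told apart, and the part of the marker-bearing cells in the ligand difference was not tested.

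**Figure D3:**
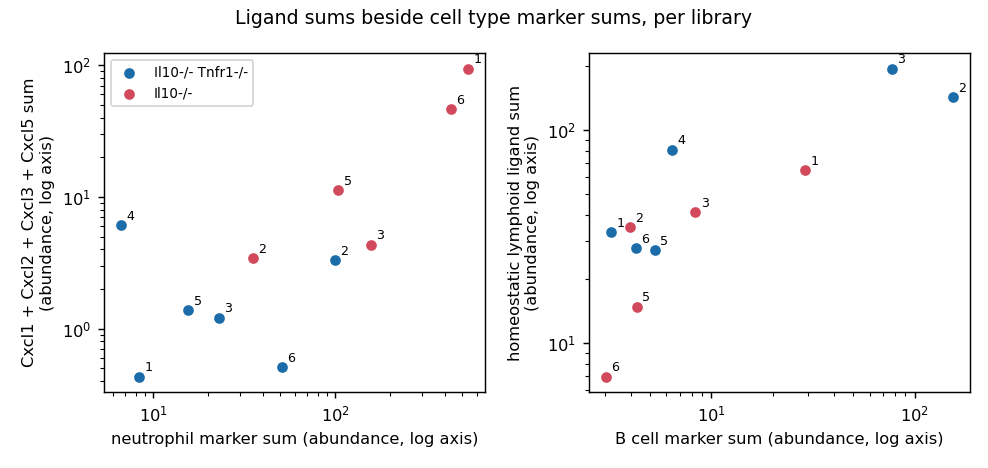
Summed ligand abundance against summed marker abundance per library, both on log axes, with replicate numbers beside the points. Left, Cxcl1, Cxcl2, Cxcl3 and Cxcl5 against 11 neutrophil markers, with Il10-/- replicates 1 and 6 at the upper right (ligand sums 94.1 and 46.2); right, the homeostatic lymphoid ligands against 8 B cell markers, with Il10-/- Tnfr1-/- replicates 2 and 3 at the upper right (ligand sums 142.9 and 193.9).

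The ligands of monocytes, macrophages and eosinophils did not share this pattern. Ccl6, a CC ligand of mouse macrophages and other myeloid cells that acts on Ccr1 (chromosome 11, 83587882 to 83593087), was by far the most abundant member and held on average 45.3% of all ligand abundance in a library. It was at 184.4, 262.1, 293.4, 143.1, 239.9 and 31.0 in Il10-/- Tnfr1-/- replicates 1 to 6, against 171.5, 208.9, 132.8, 260.3 and 237.0 in Il10-/- replicates 1, 2, 3, 5 and 6. Replicate 6 of Il10-/- Tnfr1-/- stood alone, far below the other 10 libraries. Its log2 fold change was -0.32 ± 0.50 (SE; limma adjusted p = 0.774), and 0.15 without that library. On average 61.7% of Ccl6 signal lay on a transcript that GENCODE lists as a retained intron, and on the protein-coding transcript alone the log2 fold change was -0.00054 ± 0.50 (SE).

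Ccl9, the neighbour and close relative of Ccl6 on chromosome 11, was at 18.7, 36.5, 28.3, 28.0, 11.7 and 8.87 in Il10-/- Tnfr1-/- replicates 1 to 6 and at 6.45, 24.6, 5.91, 15.5 and 8.07 in Il10-/- replicates 1, 2, 3, 5 and 6. The means were 22.01 ± 10.7 (SD, n = 6) and 12.1 ± 7.97 (SD, n = 5), and the ranges overlapped. On the log2 scale it was higher by 0.89 ± 0.43 (SE; exact permutation p = 0.104, limma adjusted p = 0.536), and by 0.38 on the protein-coding transcript alone, which carried 50.7% of the signal. Ccl11, or eotaxin 1, which attracts eosinophils through Ccr3, was at 1.25, 1.65, 6.03, 8.22, 1.78 and 1.32 in Il10-/- Tnfr1-/- replicates and at 1.16, 2.1, 2.27, 1.23 and 0.358 in Il10-/- replicates. Its log2 fold change of 0.80 ± 0.48 (SE; exact permutation p = 0.212, limma adjusted p = 0.537) was -0.0098 with the smooth muscle markers as a covariate. The 2 highest Ccl11 libraries, Il10-/- Tnfr1-/- replicates 3 and 4, also had the highest smooth muscle marker sums, 8010 and 7143. The median of these sums was 2508 in Il10-/- Tnfr1-/- and 833 in Il10-/- libraries. A fit with this covariate, for Ccl11 or any other gene, cannot fully tell muscle content from genotype, and the part of muscle was not tested. Ccl12, a Ccr2 ligand of the mouse, had a log2 fold change of 0.37 ± 0.23 (SE).

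Most other classical inflammatory members were low in both genotypes. Ccl2, the main monocyte attractant through Ccr2, reached at most 1.27 in Il10-/- Tnfr1-/- and 0.828 in Il10-/- libraries. Ccl3, Ccl4 and Ccl24 stayed below 0.7 in all libraries, and Ccl26 was listed at 0 in each. Ccl8, a further attractant of monocytes, did not exceed 2.13. Ccl7, another Ccr2 ligand, was at most 1.19 in Il10-/- Tnfr1-/- libraries and was at 6.65 and 3.06 in Il10-/- replicates 1 and 6, the libraries that also led the neutrophil ligands.

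The ligands sorted as epithelial showed no clear difference between the genotypes. All 7 that could be tested had a log2 fold change between -0.25 and 0.37, and 0 had an unadjusted limma p under 0.05. The SE was 0.18 for Cx3cl1 but 0.76 for Ccl20, so a sizeable difference could be missed for some. Cxcl5, which epithelium also makes, was sorted with the neutrophil ligands and is not counted here. Ccl28, the mucosal ligand of Ccr10 and Ccr3 that draws IgA-producing cells to the colon (chromosome 13, 119623819 to 119654359), was at 25.0, 26.1, 45.0, 20.5, 25.2 and 13.1 in Il10-/- Tnfr1-/- replicates 1 to 6 and at 38.9, 26.1, 17.6, 24.4 and 13.9 in Il10-/- replicates 1, 2, 3, 5 and 6. Its log2 fold change was 0.085 ± 0.31 (SE; limma adjusted p = 0.907).

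Cx3cl1, the membrane-bound ligand of Cx3cr1 on resident macrophages, was the steadiest of the abundant members. It was at 34.2, 35.3, 25.2, 18.7, 26.7 and 23.3 in Il10-/- Tnfr1-/- replicates 1 to 6 and at 26.1, 28.8, 23.7, 29.7 and 20.7 in Il10-/- replicates 1, 2, 3, 5 and 6, with a log2 fold change of 0.056 ± 0.18 (SE; limma adjusted p = 0.895). The genotype ranges lay over each other. Ccl25, the Ccr9 ligand best known from the small intestine and thymus, was at 28.4, 36.1, 6.24, 21.9, 17.9 and 6.0 in Il10-/- Tnfr1-/- replicates and at 4.19, 22.1, 16.2, 8.60 and 19.8 in Il10-/- replicates (log2 fold change 0.37 ± 0.54, SE; limma adjusted p = 0.760). Its spread within each genotype was wider than the difference between them.

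Cxcl16, a membrane-bound ligand of Cxcr6 on T cells and innate lymphoid cells, was at 11.9, 11.1, 20.5, 10.8, 10.4 and 16.1 in Il10-/- Tnfr1-/- replicates and at 6.45, 11.1, 31.1, 18.4 and 22.3 in Il10-/- replicates. Its log2 fold change was -0.25 ± 0.35 (SE; limma adjusted p = 0.743), and the sign depended on the transcripts counted. A transcript of the nonsense-mediated decay class held 72.7% of its signal, and on protein-coding transcripts alone the log2 fold change was 0.38 ± 0.30 (SE).

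Ccl20, the Ccr6 ligand of the epithelium over lymphoid follicles, had the largest spread of the epithelial set. It was at 4.03, 31.5, 12.4, 1.30, 2.87 and 0.465 in Il10-/- Tnfr1-/- replicates 1 to 6 and at 5.65, 1.81, 2.59, 5.23 and 4.88 in Il10-/- replicates 1, 2, 3, 5 and 6. Replicates 2 and 3 of Il10-/- Tnfr1-/- were the highest, replicates 1 and 5 lay within the Il10-/- range, and replicates 4 and 6 lay below it. Cxcl14 and Ccl27a had log2 fold changes of -0.091 ± 0.33 (SE) and -0.047 ± 0.37 (SE). Exons of Ccl27a, Cxcl16 and Ccl25 overlap those of Il11ra1, Zmynd15 and Elavl1 on the opposite strand, and no label or header says how strand was used in quantification, so their levels are uncertain. Both Ccl27 copies, near relatives of Ccl27a, reached at most 7.95 and 0.736. Cxcl17 did not exceed 0.0467, and Ccl27b was listed at 0.

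Among the lymphoid ligands, those of lymph node and follicle organization were high in 2 Il10-/- Tnfr1-/- colons and variable elsewhere. Ccl21a, made by lymphatic endothelium and lymphoid stroma and read by Ccr7 on dendritic cells and T cells (chromosome 4, 42772860 to 42773993), was at 14.6, 86.1, 73.7, 28.9, 11.4 and 12.7 in Il10-/- Tnfr1-/- replicates 1 to 6. It was at 21.8, 10.8, 16.4, 3.64 and 2.41 in Il10-/- replicates 1, 2, 3, 5 and 6. Replicates 2, 3 and 4 of Il10-/- Tnfr1-/- lay above all Il10-/- libraries, and replicates 1, 5 and 6 within their range. The means were 37.9 ± 33.4 (SD, n = 6) in Il10-/- Tnfr1-/- and 11 ± 8.27 (SD, n = 5) in Il10-/- colons. The log2 difference was 1.66 ± 0.67 (SE), with a limma p of 0.0288 (adjusted p = 0.536) and an exact permutation p of 0.0779. It was 0.89 with the smooth muscle markers as a covariate, and also 0.89 without Il10-/- Tnfr1-/- replicates 2 and 3, an alternative chosen after seeing the data.

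Ccl21 exists in the mouse as near-identical gene copies, which matters for how reads were divided. The coding sequence of the Ccl21b copy on chromosome 4 differs from that of Ccl21a at 2 of 402 bases, T84A and C194T, counted from the A of the start codon with the Ccl21a base first. Bases 170 to 218 of both, from GENCODE release M21 transcripts and 5′ to 3′ along the transcript, show the second of these in capitals; it falls in codon 65.
Ccl21a, minus strand of chromosome 4: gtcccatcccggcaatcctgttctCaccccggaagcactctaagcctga
Ccl21b, plus strand of chromosome 4: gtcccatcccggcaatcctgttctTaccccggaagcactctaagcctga

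The Ccl21b copy on the unplaced scaffold GL456350.1 carried most of the rest of the Ccl21 signal. It was at 0.0743, 1.76, 32.1, 13.8, 0.00258 and 2.38 in Il10-/- Tnfr1-/- replicates 1 to 6 and at 18.0, 7.4, 9.20, 0.00 and 1.75 in Il10-/- replicates 1, 2, 3, 5 and 6, with a log2 fold change of -0.50 ± 1.19 (SE; limma adjusted p = 0.857). Its sequence was not compared here, and the split between the copies is uncertain. The other Ccl21b copies and Ccl21c were at 1.79 in Il10-/- Tnfr1-/- replicate 3 and listed at 0 elsewhere, and further copies of Ccl21a and Ccl19 were listed at 0 throughout. Summed over all Ccl21 identifiers, the abundance was 14.6, 87.9, 111.2, 42.7, 11.4 and 15 in Il10-/- Tnfr1-/- replicates and 39.8, 18.2, 25.6, 3.64 and 4.17 in Il10-/- replicates. On the sum, Il10-/- Tnfr1-/- replicates 2, 3 and 4 were still the highest of the 11 libraries.

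Ccl19, the other Ccr7 ligand, was also highest in Il10-/- Tnfr1-/- replicates 2 and 3, at a lower level, but not high in replicate 4. It did not pass the filter, and protein-coding transcripts carried 34.3% of its signal. It was at 0.170, 35.9, 18.6, 0.00, 0.793 and 0.223 in Il10-/- Tnfr1-/- replicates 1 to 6 and at 6.97, 0.485, 0.287, 0.621 and 0.195 in Il10-/- replicates 1, 2, 3, 5 and 6. Cxcl13, which draws B cells into follicles through Cxcr5, was at 0.279, 6.89, 12.8, 0.447, 1.72 and 2.77 in Il10-/- Tnfr1-/- replicates and at 8.67, 0.0415, 2.06, 2.1 and 0.499 in Il10-/- replicates. Its log2 fold change was 0.50 ± 0.84 (SE; limma adjusted p = 0.792). For both genes the 3 highest libraries were Il10-/- Tnfr1-/- replicates 2 and 3 and Il10-/- replicate 1.

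The B cell markers stood out in the same libraries. The summed abundance of 8 markers was 154.8 and 77.4 in Il10-/- Tnfr1-/- replicates 2 and 3 and between 3.22 and 6.39 in the other 4 Il10-/- Tnfr1-/- libraries. It was 28.9 in Il10-/- replicate 1 and between 3.03 and 8.32 in the other 4 Il10-/- libraries. The defining genes Cd79a and Ms4a1 were detected in all 11 libraries. The sum of 5 lymphatic endothelium markers was highest in Il10-/- Tnfr1-/- replicates 3 and 4, at 25.5 and 14.8. It was 4.77 in Il10-/- Tnfr1-/- replicate 2, the library with the most Ccl21a, and at most 9.10 in Il10-/- libraries. The part of either marker set in the level of Ccl21a, Ccl19 and Cxcl13 was not tested.

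Cxcl12, the stromal ligand of Cxcr4 that retains lymphocytes and progenitors in tissue (chromosome 6, 117168535 to 117181367), was at 18.0, 12.2, 51.2, 37.7, 13.4 and 9.85 in Il10-/- Tnfr1-/- replicates 1 to 6 and at 9.21, 16.3, 13.1, 8.45 and 2.08 in Il10-/- replicates 1, 2, 3, 5 and 6. Replicates 3 and 4 of Il10-/- Tnfr1-/- were the highest and Il10-/- replicate 6 the lowest, with overlap in between. The log2 fold change was 1.20 ± 0.52 (SE), with a limma p of 0.0399 (adjusted p = 0.536) and an exact permutation p of 0.0693. It was 0.26 with the smooth muscle markers as a covariate, 0.23 among the 2 Il10-/- Tnfr1-/- and 3 Il10-/- mice whose names start with 1, and 0.76 without Il10-/- replicate 6. The fibroblast marker sum was also highest in Il10-/- Tnfr1-/- replicates 3 and 4, at 1143 and 1685, and lowest in Il10-/- replicate 6, at 57.5; its part in the Cxcl12 level was not tested.

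Ccl5, which T cells, natural killer cells and macrophages make and which acts on Ccr1 and Ccr3 (chromosome 11, 83525778 to 83530518), was at 2.96, 15.9, 8.40, 1.76, 8.67 and 17.2 in Il10-/- Tnfr1-/- replicates 1 to 6. It was at 2.44, 2.1, 3.93, 2.72 and 2.21 in Il10-/- replicates 1, 2, 3, 5 and 6. Replicates 2, 3, 5 and 6 of Il10-/- Tnfr1-/- lay above all Il10-/- libraries, while replicate 1 lay within their range and replicate 4 below it. The log2 fold change was 1.27 ± 0.49 (SE), with a limma p of 0.0237 (adjusted p = 0.536) and an exact permutation p of 0.0563. The T cell marker sum was between 8.47 and 77.8 in Il10-/- Tnfr1-/- and between 8.44 and 17.4 in Il10-/- libraries, and its part in the Ccl5 level was not tested.

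Xcl1, a ligand of Xcr1 on cross-presenting dendritic cells made by natural killer and CD8 T cells, did not pass the filter. It was at 0.586, 1.37, 1.18, 0.492, 1.55 and 2.88 in Il10-/- Tnfr1-/- replicates 1 to 6 and between 0.366 and 0.980 in Il10-/- libraries. The same 4 Il10-/- Tnfr1-/- libraries as for Ccl5 were above all Il10-/- libraries. Ccl17 and Ccl22, the Ccr4 ligands of dendritic cells and macrophages, shared their highest library, Il10-/- Tnfr1-/- replicate 2. Ccl17 was at 0.844, 4.07, 1.70, 0.422, 1.30 and 1.37 in Il10-/- Tnfr1-/- replicates and at 0.997, 0.251, 1.11, 0.576 and 1.00 in Il10-/- replicates (log2 fold change 0.59 ± 0.38, SE; limma adjusted p = 0.545). The authors' deposited table has the opposite sign for its transcript, a log2 fold of -0.36 with a p-value of 0.957. That fold does not follow from the group means of the 11 libraries used here. Il10-/- replicate 4 and 1 unmatched per-sample column were left out, so the sign of Ccl17 is known for these 11 libraries alone. The reason for the difference was not tested. Ccl22 was at 14.4 and 2.60 in Il10-/- Tnfr1-/- replicates 2 and 3, and at most 0.965 in the other Il10-/- Tnfr1-/- and 1.43 in the Il10-/- libraries.

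**Figure D4:**
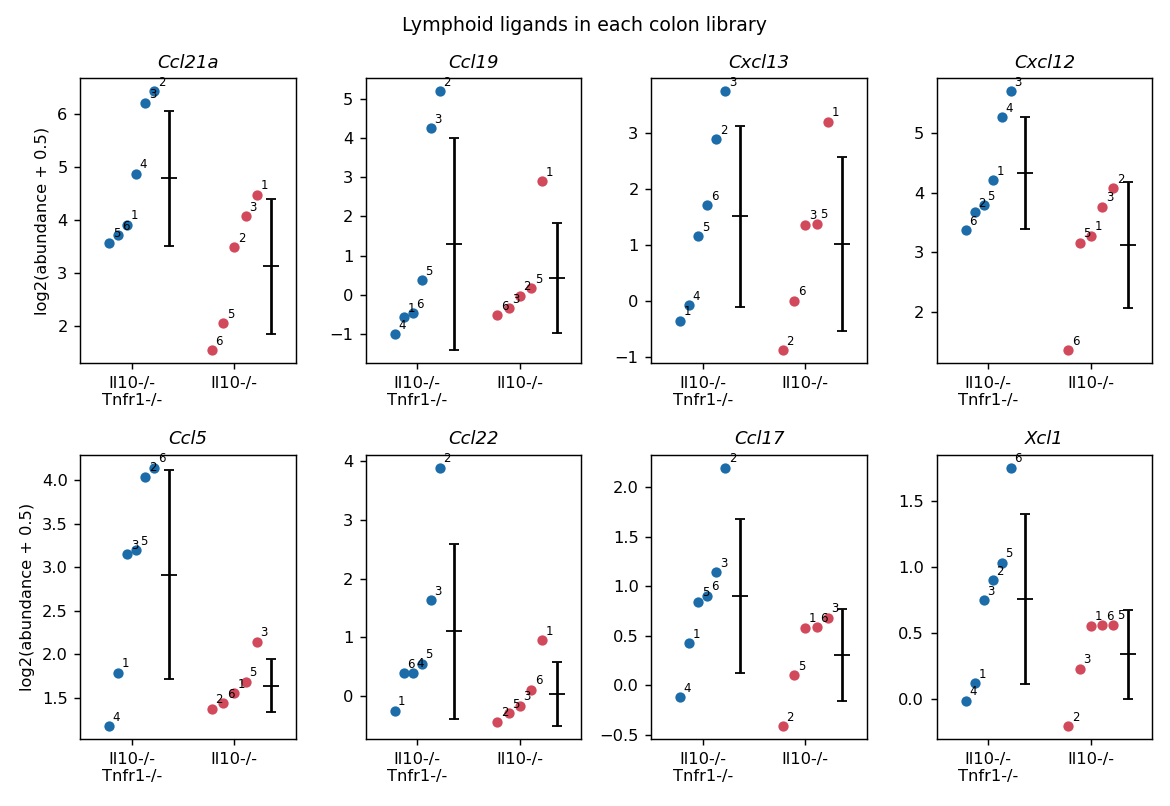
Log2(abundance + 0.5) of 8 lymphoid ligands in each library, with replicate numbers beside the points and mean ± SD as bars (n = 6 Il10-/- Tnfr1-/-, n = 5 Il10-/-). Il10-/- Tnfr1-/- replicates 2 and 3 lead for Ccl21a, Ccl19, Ccl22 and Ccl17, replicate 3 for Cxcl13, replicates 3 and 4 for Cxcl12, and replicate 6 for Ccl5 and Xcl1.

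The interferon-induced ligands of Cxcr3, which attract activated T cells, were low but for 1 library. Cxcl10 was at 0.980, 1.48, 1.71, 0.626, 2.47 and 1.79 in Il10-/- Tnfr1-/- replicates 1 to 6 and at 11.1, 0.681, 0.598, 0.664 and 1.16 in Il10-/- replicates 1, 2, 3, 5 and 6 (log2 fold change -0.032 ± 0.56, SE; limma adjusted p = 0.982). Cxcl9 did not exceed 1.93 in Il10-/- Tnfr1-/- libraries, and it was at 7.16 in Il10-/- replicate 1 and at most 0.941 in the other Il10-/- libraries. The same Il10-/- colon was thus the highest for both. Exons of Cxcl10 and Xcl1 also overlap opposite-strand genes, Art3 and Gm20743. Cxcl11 did not exceed 0.444, and Ccl1 did not exceed 0.299.

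Of the 25 members that could not be tested, 4 were listed at 0 in all libraries, 8 stayed under 1 and 13 passed 1 in at least 1 library. Summed over the members, ligand abundance lay between 176.7 and 674.0 in Il10-/- Tnfr1-/- libraries and between 336.5 and 464.8 in Il10-/- libraries. Lymphoid ligands made up between 3.46% and 31.2% of that sum, epithelial ligands between 19.4% and 43.1%, and neutrophil ligands between 0.143% and 20.3%, the last in Il10-/- replicate 1.

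**Figure D5:**
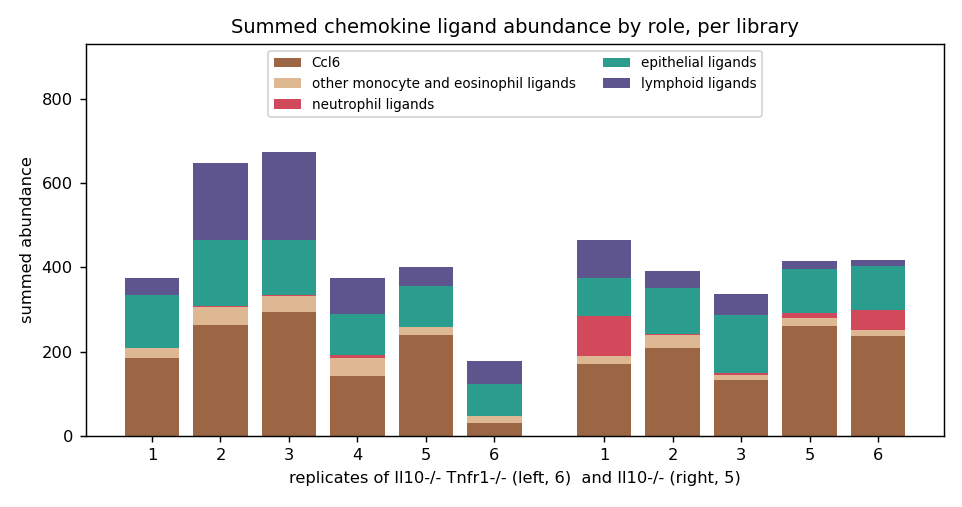
Summed ligand abundance (vertical axis, from 0) in each of the 6 Il10-/- Tnfr1-/- libraries (left) and 5 Il10-/- libraries (right), stacked by role with Ccl6 shown apart. The lymphoid segment is tallest in Il10-/- Tnfr1-/- replicates 3 and 2 (210.1 and 182.3), the neutrophil segment in Il10-/- replicates 1 and 6 (94.1 and 46.3), and Ccl6 is lowest in Il10-/- Tnfr1-/- replicate 6.

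Receptors were the other genes of the pathway. Of 24 signalling and atypical receptor genes, 7 could be tested, and 0 passed the adjusted threshold. Of these 7, 6 had a higher and 1 a lower mean log2 level in Il10-/- Tnfr1-/- colons (55.5% of all genes were higher). Ccr1, the receptor of Ccl6, Ccl9 and Ccl5 on myeloid cells, was at 2.57, 2.69, 3.9, 4.04, 3.33 and 9.79 in Il10-/- Tnfr1-/- replicates 1 to 6 and at 1.66, 2.55, 1.99, 1.64 and 1.66 in Il10-/- replicates 1, 2, 3, 5 and 6. All 6 Il10-/- Tnfr1-/- libraries were above all 5 Il10-/- libraries, by a narrow margin over Il10-/- replicate 2. Over all genes, 0.31% were higher without overlap. The log2 fold change of Ccr1 was 0.90 ± 0.30 (SE; limma adjusted p = 0.536), but 0.30 among the mice whose names start with 1 and 0.66 without Il10-/- Tnfr1-/- replicate 6.

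The scavenging receptor of Cxcl12, Ackr3, was at 3.98 ± 1.97 (SD, n = 6) in Il10-/- Tnfr1-/- and 2.41 ± 0.988 (SD, n = 5) in Il10-/- colons. The corresponding means were 5.49 ± 4.54 and 2.42 ± 0.564 for Cxcr4 and 2.87 ± 1.61 and 2.16 ± 0.549 for Cx3cr1, with log2 fold changes of 0.71 ± 0.46 and 0.25 ± 0.29 (SE). Cxcr4 was at 11.7 and 10.8 in Il10-/- Tnfr1-/- replicates 2 and 3 and at most 3.71 in any other library.

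The receptors paired with the most variable ligands were low in most libraries and did not pass the filter. Cxcr2, the neutrophil receptor of Cxcl1, Cxcl2 and Cxcl5, was between 0.253 and 0.537 in Il10-/- Tnfr1-/- and between 0.414 and 0.979 in Il10-/- libraries, highest in Il10-/- replicates 1 and 6. Ccr7 was at 7.31 and 2.48 in Il10-/- Tnfr1-/- replicates 2 and 3 and at most 0.388 in the other Il10-/- Tnfr1-/- libraries and 0.559 in the Il10-/- libraries. Cxcr5 was at 6.76 and 2.97 in the same pair, and at most 1.73 elsewhere. Ccr6 reached 2.18 and 3.07 there and at most 0.320 elsewhere. Cxcr6, Ccr9, Ccr10, Ccr4 and Ccr3, the receptors of Cxcl16, Ccl25, Ccl28, Ccl17 and Ccl11, did not pass the filter.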

How the data were processed

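Per the labels' protocols, colons were homogenized in Trizol and column-purified RNA gave stranded mRNA libraries. CASAVA, kallisto, sleuth and mm10 are named in the submitters' processing notes, without versions or settings. What the authors deposited is a length-scaled signal per transcript, not counts, so depth is unknown; library sums lay between 804109 and 1378971. Their own comparison, per the file headers, adds a natural log mean, a fold ratio with its log2, and the p-value and q-value; what is quoted from it is deposited by the authors.

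Of 12 samples, 11 had a matching column. Il10-/- replicate 4 and 1 unmatched per-sample column were not analysed here. After dropping 866 repeated rows, 113193 transcripts were summed by gene identifier; all 45 members matched GENCODE M21 genes, which gave coordinates.

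Limma (3.58.1, in R 4.3.3, with trend and robust moderation) was fitted on log2(value + 0.5) for genes over 1 in at least 5 libraries, checked on simulated data. Fold changes understate those of low genes. Exact two-sided permutation used all 462 assignments (smallest p = 0.00216), unadjusted over members. Members, lists and the rule for named genes (per role, 4 of smallest p and 2 of highest mean; for receptors, 4 of smallest p and those of named ligands) were chosen with earlier results of these data known. Library values of Cxcl2, Cxcl10, Cxcl13, Ccl19, Ccl20, Ccl21b and Xcl1 fall outside that rule and were added after they were seen; 1 receptor that the rule names is not reported here. The labels do not say whether mice shared a litter or batch. Alternatives covered pseudocount, filter, scaling, moderation, covariates and left-out libraries.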

Additional observations from a re-analysis of the deposited data

Results flagged for a closer look

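Of 50 combinations of a tested ligand or named receptor with a genotype, 4 held a library far from the others of its genotype on the log2 scale; by chance about 1 in 20 would. Ccl6 was at 31.0 in Il10-/- Tnfr1-/- replicate 6, against 143.1 to 293.4 in the other Il10-/- Tnfr1-/- libraries. Ccr1, a receptor of Ccl6, was at 9.79 in that same library, against 2.57 to 4.04. That library also had the highest epithelial marker sum of the 11, 23895, against 7503 to 12248 in the other Il10-/- Tnfr1-/- libraries; its part in either value was not tested. Cxcl14 was at 2.82 in Il10-/- Tnfr1-/- replicate 5, against 7.88 to 13.5. Cxcl10 was at 11.1 in Il10-/- replicate 1, against 0.598 to 1.16 in the other Il10-/- libraries.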

How the results depend on the processing

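In all 27 alternatives 0 ligands and 0 receptors passed the adjusted threshold with limma; the smallest member adjusted p in any was 0.215. Over all genes, quantile normalization called 1 gene and leaving out Il10-/- replicate 2 called 2, none of them ligands, against 0 otherwise. At an unadjusted p under 0.05 there were 5 members and 1131 of all 13561 genes. These counts became 1 and 142 among names that start with 1, and 2 and 243 with the first digit as a covariate. With smooth muscle markers as a covariate they were 3 and 616. They were 2 and 1012 without Il10-/- replicates 1 and 6, and 2 and 704 without Il10-/- Tnfr1-/- replicates 2 and 3. Leaving out 1 library gave between 3 and 6 members and between 482 and 2458 of all genes. The cause was not tested. The sign of Cxcl1, Cxcl5, Ccl21a, Cxcl12, Ccl5, Ccl9 and Ccl17 held in each alternative that gave a value, though Ccl17 was at -0.36 in the authors' deposited table; Cxcl1 gave none with a filter of 6 libraries. Signs turned for 6 of the 18 named genes. Cxcl16 was 0.38 on protein-coding transcripts. Cx3cl1 was -0.015 with median-ratio size factors, -0.033 without Il10-/- replicates 1 and 6, -0.025 without Il10-/- Tnfr1-/- replicates 2 and 3, and between -0.025 and 0.15 leaving out 1 library. Ccl28 was -0.034 both among names that start with 1 and with the digit as a covariate, -0.14 with smooth muscle and -0.053 with epithelium markers, -0.16 without Il10-/- Tnfr1-/- replicates 2 and 3, and between -0.091 and 0.28 leaving out 1 library. Ccl11 was -0.24 by name and by digit, and -0.0098 with smooth muscle markers. Ccl6 was 0.39 by name and by digit, and between -0.50 and 0.15 leaving out 1 library. Cx3cr1 was -0.32 by name and by digit and -0.070 with smooth muscle markers. No paired analysis was possible because the labels give no replicate numbers; those used here were assigned in accession order and name samples without pairing them. Mouse names beginning with 1 belong to 2 Il10-/- Tnfr1-/- and 3 Il10-/- animals; the other digits hold 1 genotype each, so digit and genotype cannot be told apart there. Equal totals put the median of all genes at 0.19 (log2), against 0.054 as deposited.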
